A study of Homo sapiens with 4 samples.

Results

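The human mitochondrial genome holds 37 genes, and all 37 were taken here by their chromosome in the deposited gene models, out of 60651 genes listed. They are 13 protein genes, 2 ribosomal RNA (rRNA) genes and 22 transfer RNA (tRNA) genes. The rule for the choice used no measured value, though earlier results of these data were known. The data are ribosome footprints, which are RNA fragments shielded from nuclease, from 4 human leukemia lines, each represented by a single library: K562, HL60, THP-1 and a line labelled MOLM13. K562 is an erythroid-type line of a chronic myeloid leukemia patient, HL60 is promyelocyte-like, and both THP-1 and MOLM13 are monocytic acute leukemia lines. No treatment, genotype or time point sets the libraries apart in the labels, and all 4 lysates contained cycloheximide, which stalls cytosolic ribosomes. Per the labels' protocols, the lysates were digested with the ARTseq nuclease, fragments were recovered on Sephacryl columns and rRNA was reduced with Ribo-Zero. Because no line has a second library, differences between lines were not tested and carry no p-value, and the intervals below cover counting error only.

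Mitochondria keep a small circular genome with their own ribosomes and a full set of tRNAs. Its protein genes encode core subunits of the oxidative phosphorylation system: complex I (NADH dehydrogenase), complex III (the cytochrome bc1 complex), complex IV (cytochrome c oxidase) and complex V (ATP synthase). All other subunits of these complexes, and every protein that transcribes, processes or translates mitochondrial RNA, are encoded in the nucleus and translated on cytosolic ribosomes. Both strands of the circle are transcribed as long precursors, and in many places tRNAs lie between the mRNAs and rRNAs and are cut out to release them. The inhibitor cycloheximide does not act on mitochondrial ribosomes, and protection of RNA by mitochondrial ribosomes, by other proteins or by RNA structure was not told apart in these data.

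Aligned depth ranged from 344 to 973 megabases per library. In units of 1000000 footprint equivalents of 29 bases, this is 11.9 to 33.6. The 29 bases are the modal number of aligned bases on single-exon transcripts with few aligned bases, taken as the fragment length. Erythroid markers were at a scaled TPM of at least 1 for 8 of 10 genes in K562 and for 0 of 10 in THP-1 and HL60, and promyelocytic markers for 6 of 6 in both THP-1 and HL60. Of 8 monocytic markers, 8 reached that level in THP-1 and 7 in HL60. The deposited file behind the MOLM13 label is named differently from its sample. In that library 6 of 6 promyelocytic markers also reached a scaled TPM of at least 1. Their sum there was 41.0, against 9275 in HL60 and 8508 in THP-1. Of the monocytic markers 3 of 8 and of the erythroid markers 3 of 10 reached that level, and CD68 and CSF1R were listed at 0. Of the 5 markers chosen for MOLM13, 3 reached it there while FLT3 and MEIS1 were listed at 0. In K562, HL60 and THP-1, 3, 2 and 4 of these 5 reached it. The summed scaled TPM of the 5 was 6.14, 5.54, 549.8 and 27.6 in K562, HL60, the library labelled MOLM13 and THP-1. The label could not be settled from these values, so the library is called by its label throughout, and results are also given without it.

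In 3 places neighbouring protein genes share bases, and a footprint there cannot be given to one gene or the other. MT-ATP6 and MT-CO3 share 1 base. The 2 longer joins are shown because their ratios are described below, with the start codon of the second gene and the stop codon of the first in capitals and 9 bases on either side of the overlap. Sequences are the GENCODE release 29 transcripts on hg38, where all 37 genes have the same coordinates as in the deposited files. The overlap of MT-ATP8 and MT-ATP6 is 46 bases long (window chrM:8518-8581, plus strand) and that of MT-ND4L and MT-ND4 is 7 bases long (window chrM:10751-10775, plus strand).
MT-ATP8 and MT-ATP6: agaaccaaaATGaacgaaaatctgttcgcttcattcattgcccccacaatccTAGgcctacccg
MT-ND4L and MT-ND4: cctactccaATGcTAAaactaatcg

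Of the 13 protein genes, 9 begin with ATG, 3 with ATA and 1 with ATT, and 6 end in an incomplete stop of T or TA, which polyadenylation is known to complete. MT-CO1 ends in AGA and MT-ND6 in AGG, which do not code for an amino acid in human mitochondria. MT-ND6 is the 1 protein gene on the minus strand.

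The tRNA genes shown, with the anticodon in capitals, include those called in a line other than MT-TM, whose anticodon the search did not locate, and MT-TG and MT-TT for their high levels: MT-TF (chrM:577-647, plus strand), MT-TL1 (chrM:3230-3304, plus strand), MT-TC (chrM:5761-5826, minus strand), MT-TD (chrM:7518-7585, plus strand), MT-TG (chrM:9991-10058, plus strand), MT-TS2 (chrM:12207-12265, plus strand), MT-TT (chrM:15888-15953, plus strand) and MT-TP (chrM:15956-16023, minus strand). They carry phenylalanine, leucine, cysteine, aspartate, glycine, serine, threonine and proline in this order, and MT-TS2 is the serine tRNA known to lack a D arm.
MT-TF: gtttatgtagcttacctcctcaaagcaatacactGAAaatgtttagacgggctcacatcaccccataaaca
MT-TL1: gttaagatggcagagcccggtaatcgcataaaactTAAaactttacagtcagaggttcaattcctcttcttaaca
MT-TC: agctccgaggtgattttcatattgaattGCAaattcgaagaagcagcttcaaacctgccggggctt
MT-TD: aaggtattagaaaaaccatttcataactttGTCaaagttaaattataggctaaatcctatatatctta
MT-TG: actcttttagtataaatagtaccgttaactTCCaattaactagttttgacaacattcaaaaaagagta
MT-TS2: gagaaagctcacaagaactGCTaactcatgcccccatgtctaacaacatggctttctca
MT-TT: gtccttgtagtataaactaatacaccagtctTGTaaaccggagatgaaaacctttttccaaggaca
MT-TP: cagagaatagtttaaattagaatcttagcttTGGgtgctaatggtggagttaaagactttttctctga

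The 37 genes held 14.4% in K562, 7.76% in HL60, 11.2% in the library labelled MOLM13 and 10.0% in THP-1 of all aligned bases. Most of this was rRNA: MT-RNR1 and MT-RNR2 together held 12.6% in K562, 6.85% in HL60, 10.1% in the library labelled MOLM13 and 9.38% in THP-1. The 13 protein genes held 1.65% in K562, 0.866% in HL60, 0.940% in the library labelled MOLM13 and 0.527% in THP-1. The Wilson binomial interval of the THP-1 share was 0.524 to 0.530% at the 95% level, so counting error is far smaller than the gaps between lines. The 22 tRNA genes held 0.174% in K562, 0.0516% in HL60, 0.118% in the library labelled MOLM13 and 0.0976% in THP-1. By aligned bases, K562 had the highest share of all 3 classes, THP-1 had the lowest share for the protein genes, and HL60 had the lowest for rRNA and tRNA. By share of deposited TPM, K562 stayed highest for the protein and tRNA genes but not for rRNA. The rRNA share by that measure was 8.34% for K562, below the 9.20% of the library labelled MOLM13. Among the bases on the 37 genes, the protein genes took 11.4, 11.2, 8.42 and 5.27% in K562, HL60, the library labelled MOLM13 and THP-1, so HL60 and K562 lay close together on this measure. A footprint share cannot tell more mitochondria per cell from more RNA per mitochondrion or more ribosomes per RNA.

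**Figure D1:**
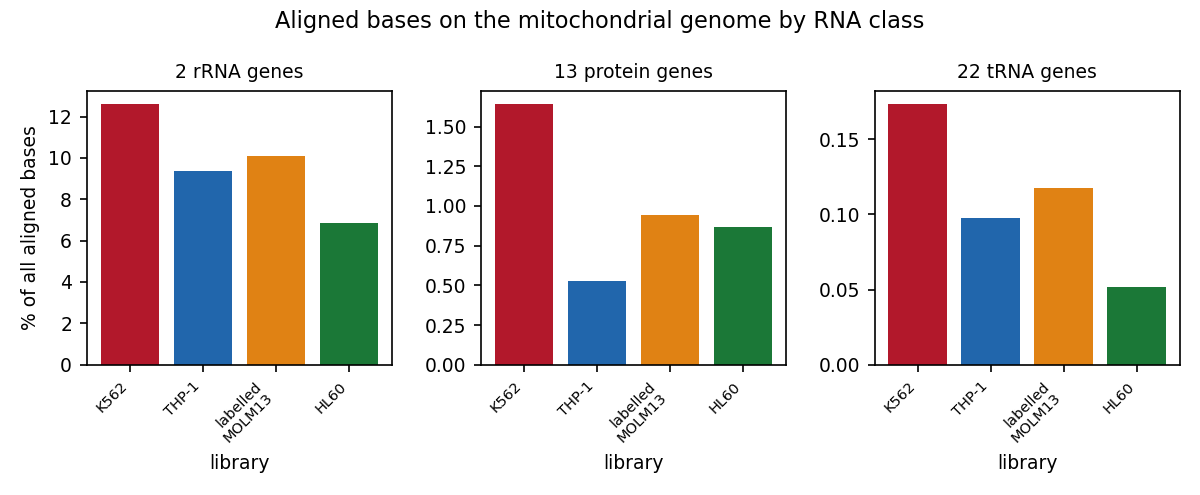
Percentage of all aligned bases on the 2 rRNA genes, the 13 protein genes and the 22 tRNA genes, with 1 bar per library and no replicates. Each panel has its own axis from 0; K562 has the tallest bar in all 3 panels, THP-1 the shortest for the protein genes and HL60 the shortest for rRNA and tRNA genes.

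The 2 rRNAs of the mitochondrial ribosome, the 12S rRNA of the small subunit (MT-RNR1) and the 16S rRNA of the large subunit (MT-RNR2), differed in how much they varied. In scaled TPM, a level per length made comparable between libraries, MT-RNR2 was at 71993 in K562, 43335 in HL60, 48504 in the library labelled MOLM13 and 62476 in THP-1. The highest of these was 1.66 times the lowest. MT-RNR1 was at 27688 in K562, 5341 in HL60, 33453 in the library labelled MOLM13 and 11149.7 in THP-1, with a highest-to-lowest ratio of 6.26. It was called low in HL60, where the lowest other line was 2.09 times higher and 5.25% of protein-coding genes were called low. The ratio of MT-RNR2 to MT-RNR1 was therefore 2.60, 8.11, 1.45 and 5.60 in K562, HL60, the library labelled MOLM13 and THP-1. The kit removes rRNA by hybridization, the removal of mitochondrial rRNA by it was not measured here, and its part in these levels was not tested.

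Complex I has 7 of the 13 protein genes. The 4 widest ranges between lines among the 13 were all in it, for MT-ND2, MT-ND4L, MT-ND4 and MT-ND6, at 6.22- to 7.19-fold. MT-ND1, which lies next to the leucine tRNA MT-TL1, was at a scaled TPM of 591 in K562, 295 in HL60, 754 in the library labelled MOLM13 and 202 in THP-1. On this scale it was the only one of the 13 genes with its highest value outside K562. MT-ND2 was at 533 in K562, 158 in HL60, 216 in the library labelled MOLM13 and 74.1 in THP-1. The THP-1 value has a 95% Poisson interval of 70.5 to 77.9 and lies below the values of all other lines. A nuclear copy of MT-ND2, described below, makes its levels and its range between lines less certain. MT-ND3 was at 2615 in K562, 1296 in HL60, 919.8 in the library labelled MOLM13 and 813 in THP-1 and was the most abundant complex I gene per length in K562 and HL60.

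The overlapping pair MT-ND4L and MT-ND4 is read from one mRNA. MT-ND4L was at a scaled TPM of 1572 in K562, 422 in HL60, 469.7 in the library labelled MOLM13 and 235 in THP-1, and MT-ND4 was at 985 in K562, 249 in HL60, 262 in the library labelled MOLM13 and 152 in THP-1. For both, K562 stood more than 3-fold above each other line. MT-ND5 was at 2059 in K562, 1047 in HL60, 1223 in the library labelled MOLM13 and 879 in THP-1, and its range of 2.34-fold was the smallest within complex I. MT-ND6, on the other strand, was at 1004 in K562, 209 in HL60, 308 in the library labelled MOLM13 and 162 in THP-1. Its values followed those of MT-ND4 in having K562 far above the rest, with 4.81 times the HL60 level.

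MT-CYB, the cytochrome b of complex III, was among the 2 highest genes per length in every library, with a scaled TPM of 3177 in K562, 1463 in HL60, 1637 in the library labelled MOLM13 and 1109 in THP-1. In complex IV, the catalytic subunit MT-CO1 was at 1353 in K562, 1229 in HL60, 1072 in the library labelled MOLM13 and 626 in THP-1, and MT-CO2, which takes up electrons from cytochrome c, was at 1216 in K562, 825 in HL60, 1049 in the library labelled MOLM13 and 638 in THP-1. For these 2 genes K562 stood close to the next line: K562 was 1.10 times HL60 for MT-CO1 and 1.16 times the library labelled MOLM13 for MT-CO2. MT-CO3 was at 3461 in K562, 1589 in HL60, 1474 in the library labelled MOLM13 and 780.4 in THP-1, a 4.44-fold range. In complex V, MT-ATP8 was at 1186 in K562, 905 in HL60, 959 in the library labelled MOLM13 and 654 in THP-1, the narrowest range of the 13 genes at 1.81-fold. MT-ATP6, which forms part of the proton channel, was at 669 in K562, 379 in HL60, 386 in the library labelled MOLM13 and 221 in THP-1.

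**Figure D2:**
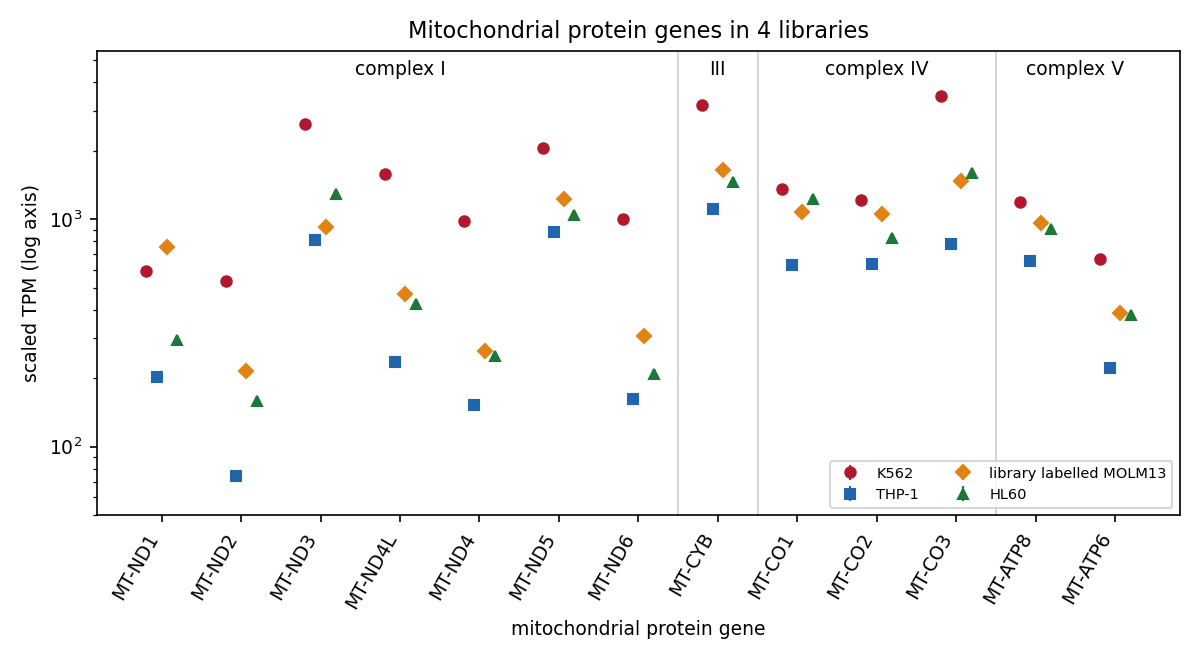
Scaled TPM on a log axis of the 13 mitochondrial protein genes, grouped by complex, with 1 point per library and 95% Poisson bars that are mostly smaller than the points. K562 is highest for 12 of the 13 genes and THP-1 lowest for all 13.

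K562 was highest for 12 of 13 protein genes and THP-1 lowest for 13 of 13. THP-1 stayed lowest for 13 of 13 with deposited TPM, with TPM over nuclear protein-coding genes and with aligned bases not divided by length; K562 was highest for 12 of 13 with the last 2 of these and for 9 of 13 with deposited TPM, where MT-ND1, MT-CO1, MT-CO2 and MT-ATP8 were the exceptions. The call rule is one of size: a gene counts as high if its log2(scaled TPM + 1) exceeds every other library by 1 or more, and as low if it falls short of every other library by as much, with a minimum of 600 aligned bases behind the higher values. By this rule 6 of 13 genes were high in K562 (MT-ND2, MT-ND3, MT-ND4L, MT-ND4, MT-ND6 and MT-CO3), where 5.17% of protein-coding genes were called high. None was low there, where 7.17% of protein-coding genes were. In THP-1, 1 of 13 (MT-ND2) was low and none was high, where 1.86% and 8.28% of protein-coding genes were low and high. This MT-ND2 call is uncertain, since a nuclear copy described below, MTND2P28, held a scaled TPM of 26.1 in THP-1 against 74.1 for MT-ND2. No protein gene was called in HL60 or in the library labelled MOLM13, where 4.13% and 6.28% of protein-coding genes were called high and 5.25% and 3.2% low. Of the 6 genes high in K562, 5 encode complex I subunits, as do 7 of all 13 genes. Among these 5, MT-ND4L and MT-ND4 overlap. With deposited TPM 3 of 13 genes were high in K562, and with a log2 distance of 2 none was. Without the library labelled MOLM13, 8 were high in K562 and 2 low in THP-1.

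Set against the mean of the other 3 libraries, the median log2 difference of the 13 genes was 1.20, -0.29, -0.017 and -1.06 in K562, HL60, the library labelled MOLM13 and THP-1. Over all 11823 protein-coding genes that reached a scaled TPM of 1 in any library, it was -0.10, -0.21, 0.12 and 0.044. All 13 genes lay above the mean of the other lines in K562, and none did in THP-1. The size of the K562 difference was not even along the genome. It was 0.53, 0.57 and 0.52 for the adjoining genes MT-CO1, MT-CO2 and MT-ATP8. It was 2.12, 2.19 and 2.20 for MT-ND4L, MT-ND4 and MT-ND6, with 0.98 for MT-ND5 between them.

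**Figure D3:**
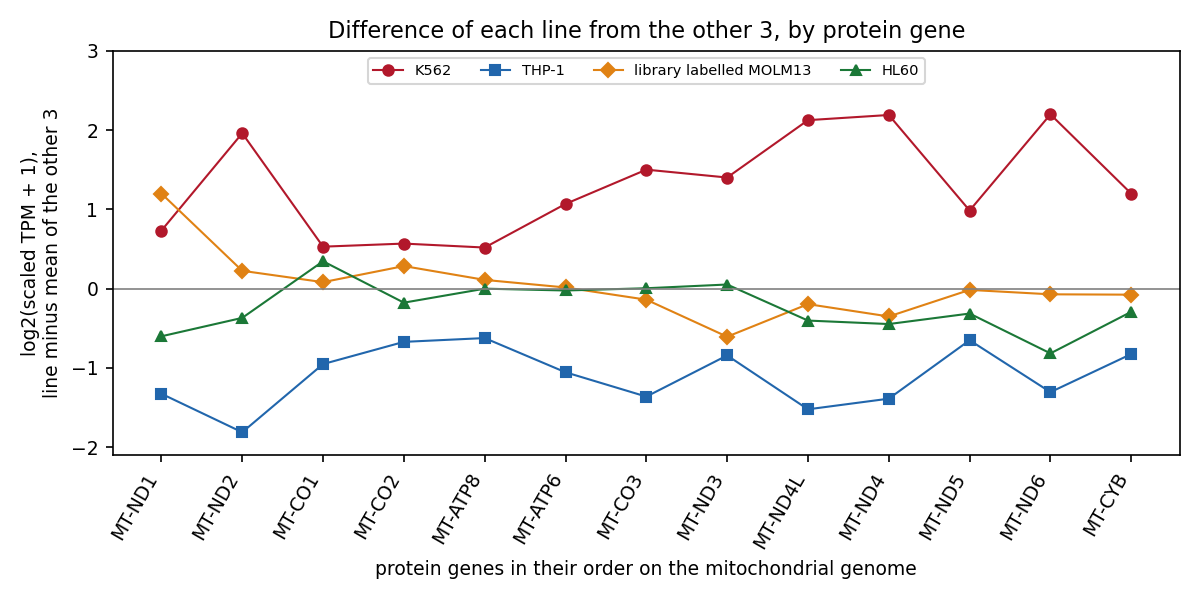
Log2(scaled TPM + 1) of each library minus the mean of the other 3, for the 13 protein genes in genome order, with 1 point per gene and library joined by lines to guide the eye. K562 lies above 0 and THP-1 below 0 for all 13 genes, and the library labelled MOLM13 has its peak at MT-ND1.

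Within a library the 13 genes spanned 6.50-fold in K562 and 15.0-fold in THP-1, per length. MT-ND2 was the lowest in all 4 libraries. In K562 this rank is uncertain: MT-ND2 was at a scaled TPM of 533 and MT-ND1 at 591, and the nuclear copy MTND2P28, described below, was at 78.1. MT-CO3 ranked highest in K562 and HL60, and MT-CYB in THP-1 and the library labelled MOLM13. The log2 levels were most alike between THP-1 and HL60, with a Pearson r of 0.98 over 13 genes and an SD of the log2 ratios of 0.28. By r they were least alike between K562 and the library labelled MOLM13, with r = 0.73 and an SD of 0.69. By the SD they were least alike between K562 and THP-1, with r = 0.82 and an SD of 0.72. In gene order, measured by Spearman rho, THP-1 and HL60 hardly stood out. Their rho was 0.912, and K562 and HL60 had 0.901. The library labelled MOLM13 had a rho of 0.907 with HL60, 0.896 with THP-1 and 0.802 with K562. K562 and THP-1 had 0.863. These coefficients describe genes within libraries that share gene length and base composition, and genes are not replicates.

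Relative to the mean of the 13 genes in the same library, complex I subunits had a mean TPM of 0.851, 0.678, 0.719 and 0.714 in K562, HL60, the library labelled MOLM13 and THP-1. Complex IV subunits were at 1.28, 1.57, 1.45 and 1.35 and complex V subunits at 0.590, 0.829, 0.815 and 0.869. The relative level of complex I was thus highest in K562, that of complex IV highest in HL60, and complex V was lowest in K562. On the median over subunits, complex I was at 0.826, 0.358, 0.511 and 0.323, a wider gap between K562 and the rest. Without MT-ND6 and the overlapping pairs the gap nearly closed, with 0.773, 0.708, 0.746 and 0.769. On the median, complexes IV and V were lowest in THP-1. MT-CYB, the single complex III gene, was at 2.02, 1.89, 1.98 and 2.20 times the mean of the 13.

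The nuclear-encoded subunits of the same complexes, translated on cytosolic ribosomes, did not follow this order. The median log2 difference of the 37 nuclear complex I subunits was -0.50, 0.50, -0.17 and 0.011 in K562, HL60, the library labelled MOLM13 and THP-1, with 1 called high in K562 (NDUFA10) and 1 in HL60 (NDUFB2), beside 5.17% and 4.13% of protein-coding genes. For the 11 nuclear complex IV subunits it was -0.67, 0.47, -0.48 and 0.81, the opposite signs to the mitochondrial genes in K562 and THP-1. In this list COX7C was called high in HL60, with scaled TPM values of 87.5, 714, 154 and 259. The 9 nuclear complex III subunits had medians of -0.31, 0.013, 0.073 and 0.44, and the 17 of complex V had -0.090, 0.47, -0.22 and 0.075. UQCRH was the 1 of 9 complex III subunits called low in the library labelled MOLM13, at 455, 357, 49.1 and 501. In complex V, ATP5PB and ATP5MF were low in the same library, at 391, 591, 107 and 658 and at 757, 1130.5, 266 and 1151, and ATP5F1C was high in it, at 486, 241, 1140.4 and 504. Of the 17 complex V subunits, 2 were thus low and 1 high there, and 1 was low and 1 high in HL60. Of all protein-coding genes, 3.2% were low and 6.28% high in the library labelled MOLM13, and 5.25% and 4.13% in HL60. The ratio of the mitochondrial to the nuclear mean of scaled TPM within complex I was 7.21, 1.73, 2.80 and 1.43, and within complex IV it was 4.90, 1.84, 2.53 and 0.826. K562 had the highest and THP-1 the lowest of these ratios in both complexes, as in complex III (12.7, 5.26, 5.68 and 3.12) and complex V (2.12, 1.14, 1.56 and 0.815). Footprints of the 2 ribosome types need not be recovered equally, so only the order between lines is read.

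**Figure D4:**
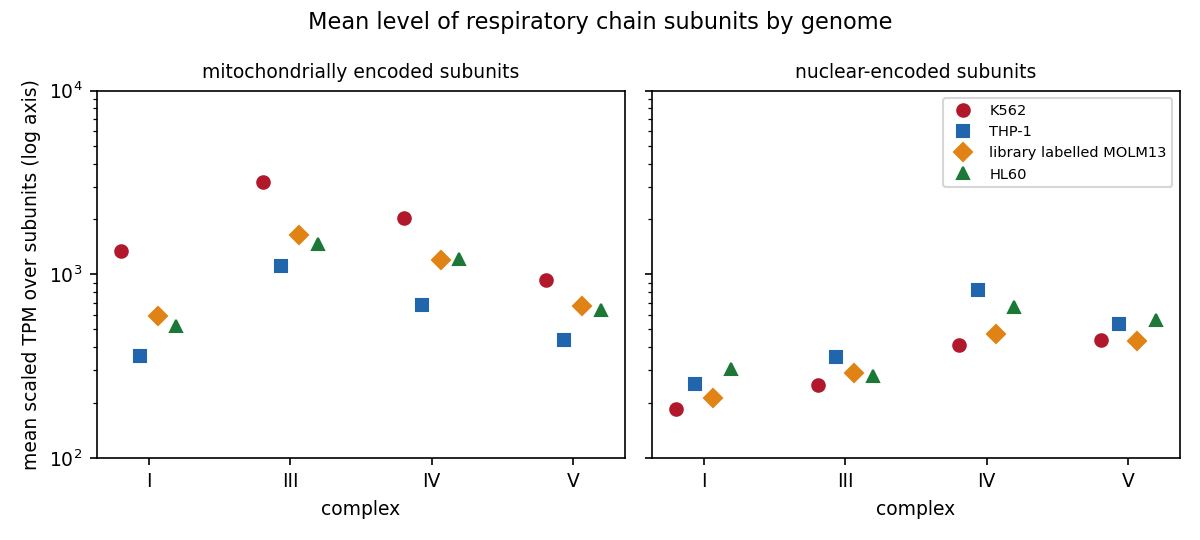
Mean scaled TPM on a log axis over the mitochondrially encoded subunits (left) and the nuclear-encoded subunits (right) of complexes I, III, IV and V, with 1 point per library and no replicates. K562 is highest and THP-1 lowest in each complex on the left, and neither holds for any complex on the right.

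Complex II, which has no mitochondrial gene, had medians of -1.14, 1.23, -1.12 and 0.098 over 4 subunits, of which SDHD was listed at 0 in 3 lines and at a scaled TPM of 65.3 in HL60. The 77 mitochondrial ribosomal proteins had medians of -0.036, 0.39, -0.13 and -0.21. Of these, 3 and 4 were called high and low in K562, beside 5.17 and 7.17% of protein-coding genes, and 1 and 3 in THP-1, beside 8.28 and 1.86%. MRPL30 was at 186, 28.96, 4.80 and 14.6, while MRPL34 was listed at 0 in K562 and MRPL23 in THP-1. The 47 factors of mitochondrial transcription and RNA processing had medians of 0.24, 0.0062, 0.033 and -0.25, with 4 called high and 3 low in K562, beside the same 5.17 and 7.17% of protein-coding genes. Among them REXO2, a mitochondrial oligoribonuclease, was low in THP-1 at 151, 83.4, 146 and 20.7. TFB1M, which methylates the 12S rRNA, and MRM2, which methylates the 16S rRNA, were listed at 0 in K562. The 19 mitochondrial translation factors had medians of 0.17, 0.53, -0.14 and -0.30. TACO1, an activator of MT-CO1 translation, was low in THP-1 at 34.5, 24.1, 25.5 and 9.96. MRRF, the ribosome recycling factor, was high in HL60 at 19.3, 45.0, 2.96 and 2.24, and the initiation factor MTIF3 was listed at 0 in K562. The list of mitochondrial aminoacyl-tRNA synthetases, 21 genes that include the related GATB, had medians of -0.024, 0.20, 0.038 and -0.087. GARS and KARS were not found under these names and are left out of it. CARS2 and AARS2, which charge the cysteine and alanine tRNAs, were listed at 0 in K562. GATB, part of the enzyme that completes glutaminyl-tRNA, was low in K562 at 3.05, 34.3, 12.4 and 14.6. Several of these medians changed sign with the scaling, as listed in the closing section. Listed zeros were common: of the 11823 protein-coding genes described above, 2414 were at 0 in K562 and 1058 in THP-1. In K562 they were 2 of the 77 ribosomal proteins and 3 of the 47 transcription and RNA factors. They were also 1 of the 19 translation factors and 2 of the 21 genes of the synthetase list there.

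At the overlapping joins shown above, the upstream gene had the higher level per length. The ratio of MT-ATP8 to MT-ATP6 in TPM was 1.77, 2.39, 2.48 and 2.96 in K562, HL60, the library labelled MOLM13 and THP-1, and that of MT-ND4L to MT-ND4 was 1.60, 1.69, 1.79 and 1.54. The first ratio differed between K562, with a 95% interval of 1.70 to 1.85, and THP-1, with 2.81 to 3.12. The second varied less. How the authors' counting divided the shared bases is not given in the sources used here. A nuclear copy of MT-ATP6, described below, may hold some of its reads, so the first ratio is less certain than its intervals show. MT-ND6 lies beside MT-ND5 on the other strand, and the ratio of MT-ND6 to MT-ND5 was 0.488, 0.199, 0.252 and 0.184. Per the file headers no strand option was set, so reads from MT-ND6 and from RNA of the opposite strand cannot be told apart, and the same holds for the 8 tRNAs of the minus strand.

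Nuclear copies of mitochondrial DNA can take up the same reads. The 400 annotated pseudogene copies held aligned bases equal to 1.25% of those on the 13 protein genes in HL60, the lowest value, and 1.97% in K562, the highest. The copy with the most aligned bases over the 4 libraries, MTATP6P1 on chromosome 1, was at a scaled TPM of 80.9, 62.8, 29.6 and 30.7 in K562, HL60, the library labelled MOLM13 and THP-1, and MTND2P28 beside it was at 78.1, 16.6, 39.7 and 26.1. The 13 MT-RNR2-like genes, of which MTRNR2L1, MTRNR2L12 and MTRNR2L6 led, held 0.118, 0.110, 0.0761 and 0.121% of the bases on the 37 genes. In K562, HL60, the library labelled MOLM13 and THP-1, MT-ATP6 itself was at 669, 379, 386 and 221 and MT-ND2 at 533, 158, 216 and 74.1. For these genes the copies thus weigh more than the pooled percentages show, and the levels of both genes are uncertain. This holds most for MT-ND2 in THP-1, where the 26.1 of MTND2P28 compares with 74.1.

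The tRNA genes ranged more widely than the protein genes. Of 22, 14 had at least 600 aligned bases in a library, 5 (MT-TV, MT-TQ, MT-TA, MT-TN and MT-TK) were listed at 0 in all 4 libraries, and the other 3 (MT-TW, MT-TS1 and MT-TE) had a scaled TPM of at most 10.5. MT-TV, the valine tRNA, is listed at 0 although it lies with no gap between the 2 rRNA genes. Whole tRNAs are longer than a footprint and heavily structured and modified, so a tRNA value is a level of protected fragments and not of tRNA.

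MT-TT, the threonine tRNA, had the highest level of any tRNA in K562, HL60 and the library labelled MOLM13. Its scaled TPM was 9324 in K562, 1592 in HL60, 7655 in the library labelled MOLM13 and 1491 in THP-1. It lies next to MT-CYB, and its level relative to that gene was 2.93, 1.09, 4.67 and 1.34. MT-TP, the proline tRNA on the opposite strand, was at 2748 in K562, 1326 in HL60, 3106 in the library labelled MOLM13 and 3729.8 in THP-1, and was called low in HL60. Together with MT-TF, it led in THP-1. MT-TF, the phenylalanine tRNA at the start of the heavy-strand precursor, was at 1316 in K562, 519 in HL60, 452 in the library labelled MOLM13 and 3515 in THP-1, and its share of the summed tRNA TPM was 4.63, 6.44, 2.43 and 21.5%. Of the 14 tRNAs with at least 600 aligned bases in a library, it was the 1 called high in THP-1, beside 8.28% of protein-coding genes. MT-TG, the glycine tRNA, was at 3609 in K562, 1293 in HL60, 1999.7 in the library labelled MOLM13 and 2855 in THP-1. It lies with no gap between MT-CO3 and MT-ND3, and in THP-1 it exceeded MT-CO3 3.66-fold.

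K562 was called high for 4 of the 14 tRNAs with at least 600 aligned bases in a library, beside 5.17% of protein-coding genes that met the same condition. MT-TL1, a leucine tRNA that follows MT-RNR2, was at 2955 in K562, 494 in HL60, 1076 in the library labelled MOLM13 and 990.3 in THP-1. MT-TS2, the serine tRNA without a D arm, was at 3751 in K562, 639 in HL60, 1543 in the library labelled MOLM13 and 834 in THP-1. MT-TC and MT-TM were the other two. MT-TC, the cysteine tRNA, was at 370.3 in K562, 71.9 in HL60, 177 in the library labelled MOLM13 and 158 in THP-1, and MT-TM, the methionine tRNA used for both initiation and elongation, was at 278 in K562, 34.0 in HL60, 113 in the library labelled MOLM13 and 44.2 in THP-1. HL60 was called low for 3 of these 14 tRNAs, namely MT-TL1, MT-TC and MT-TP, beside 5.25% of protein-coding genes. Without the library labelled MOLM13 these counts were 7 high in K562 and 5 low in HL60, and with deposited TPM they were 1 and 1. In the cluster between MT-ND4 and MT-ND5, MT-TH (histidine) was at 1059 in K562, 558 in HL60, 385 in the library labelled MOLM13 and 299.7 in THP-1, and MT-TL2, the second leucine tRNA, was at 1531 in K562, 1102 in HL60, 981 in the library labelled MOLM13 and 2042 in THP-1. The neighbours MT-TS2 and MT-TL2 thus had different orders of lines, with K562 highest for MT-TS2 and THP-1 highest for MT-TL2.

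The 4 remaining tRNAs with at least 600 aligned bases were MT-TY, MT-TI, MT-TR and MT-TD. MT-TY (tyrosine) was at a scaled TPM of 979.8 in K562, 207 in HL60, 845 in the library labelled MOLM13 and 180.5 in THP-1, with K562 and the library labelled MOLM13 well above the others. MT-TI (isoleucine) was at 313 in K562, 128 in HL60, 279 in the library labelled MOLM13 and 137 in THP-1. MT-TR (arginine) was at 106 in K562, 56.5 in HL60, 33.8 in the library labelled MOLM13 and 17.7 in THP-1, where the THP-1 value rests on few fragments and has a 95% interval of 11.3 to 26.5. MT-TD (aspartate) was at 70.9 in K562, 38.4 in THP-1 and 29.4 in HL60, and was listed at 0 in the library labelled MOLM13. Of the 14 tRNAs with at least 600 aligned bases in a library, it was the 1 called low there, beside 3.2% of protein-coding genes. This call rests on a listed 0, and with a minimum of 3000 aligned bases 0 tRNAs were low there and with 150 there were 2. Over the 17 tRNAs above 0 in a library, on this scale, K562 was highest for 13 and HL60 for none. Among these 13, MT-TE was at 10.5 in K562 against 10.3 in THP-1 and MT-TS1 at 10.3 against 8.20 in HL60, on few fragments. With deposited TPM, MT-TI, MT-TY and MT-TT were instead highest in the library labelled MOLM13 and MT-TE in THP-1.

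**Figure D5:**
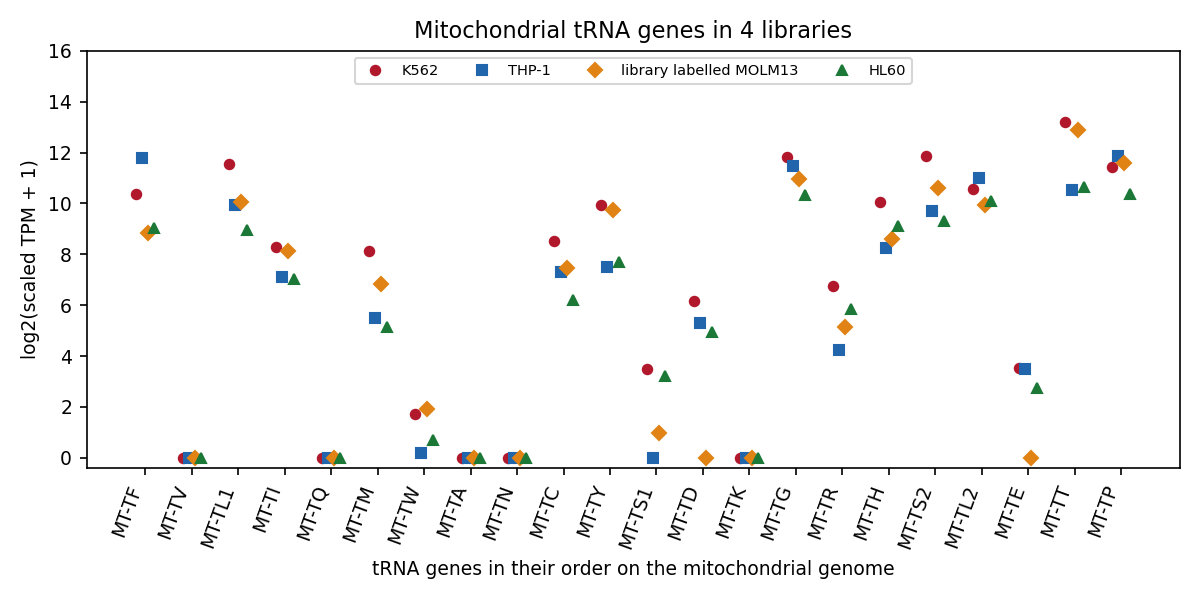
Log2(scaled TPM + 1) of the 22 mitochondrial tRNA genes in genome order, with 1 point per library and no replicates. The 5 genes on the 0 line in all 4 libraries are listed at 0, and MT-TF is the gene where THP-1 stands furthest above the other lines.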

How the data were processed

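Ribosome footprints were measured in 4 leukemia lines, 1 library each, grouped by the cell line in the labels. Per the submitters' processing notes, Trim Galore 0.6.6, Bowtie2 2.4.2, STAR 2.7.8a, StringTie 2.1.5 and the build hg38 were used. Per the file headers, StringTie ran on read 1 against GENCODE release 37, without a strand option. The authors' deposited values are TPM, FPKM and coverage for each transcript, held in 1 attribute column per file. How reads with several matches were treated is not given in the sources used here.

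Genes were joined by gene ID, and transcript TPM was summed per gene. Aligned bases are coverage times length, and footprint equivalents are aligned bases divided by 29. This is the modal number of aligned bases on single-exon transcripts with few aligned bases. It stands in for the fragment length, which was not measured directly or for mitochondrial fragments alone. For scaled TPM, each gene at a TPM of 10 or more in every library (3751 genes) was set against its geometric mean over libraries, and TPM was divided by the median of these ratios. These factors were 0.837, 1.05, 1.12 and 1.01 in K562, HL60, the library labelled MOLM13 and THP-1. Calls and log2 differences use log2(scaled TPM + 1), which understates changes of low genes, and folds are ratios of scaled TPM with no pseudocount. At 600 aligned bases the exact Poisson interval spans 61.7 to 153% of the value at the 95% level. Read fragments carry no molecular identifiers, so intervals cover counting error only.

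Named genes are all 37 members, up to 3 called members of each nuclear list by distance, and the 5 nuclear copies with most aligned bases. Members and lists were chosen with earlier results of these data known. Alternatives were deposited TPM, TPM over nuclear protein-coding genes, pseudocounts of 0.1 and 5, aligned bases without division by length, distances of 0.5 and 2, minimums of 150 and 3000 aligned bases, other denominators, and leaving out the library labelled MOLM13. The calling step was tested on simulated data for 9474 genes. Gene types and sequences came from GENCODE release 29. Software was SciPy 1.17.1, pandas 2.3.3, NumPy 2.4.6 and Matplotlib 3.10.9 under Python 3.11.15.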

Additional observations from a re-analysis of the deposited data

How the results depend on the processing

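Where 4 values follow one another they are for K562, HL60, the library labelled MOLM13 and THP-1, and where 3 do the library labelled MOLM13 is left out. For the 13 protein genes, the K562 median stayed above 0 and the THP-1 median below 0 under all 6 alternatives run. Their median log2 differences were 0.86, -0.20, 0.21 and -1.03 with deposited TPM, and 1.45, -0.48, 0.14 and -1.28 with TPM over nuclear protein-coding genes. They were also 1.35, -0.34, 0.021 and -1.20 with aligned bases, and 1.32, -0.23 and -1.18 without the library labelled MOLM13. The median of the library labelled MOLM13 is close to 0 and changed sign with all 3 scalings. The calls of protein genes that moved by over 1.5 times came to 3 high in K562 and 2 low in THP-1 with deposited TPM, then 2 low in THP-1 with TPM over nuclear protein-coding genes. They came to 2 low in THP-1 with aligned bases, then 2 low in THP-1 without the library labelled MOLM13. They came to 7 low in THP-1 at a log2 distance of 0.5, then 0 high in K562 and 0 low in THP-1 at a log2 distance of 2. The calls of tRNA genes that moved by over 1.5 times came to 1 high in K562, 1 low in THP-1 and 1 low in HL60 with deposited TPM, then 7 high in K562 and 1 low in THP-1 with TPM over nuclear protein-coding genes. They came to 1 low in HL60 with aligned bases, then 7 high in K562, 1 low in THP-1 and 5 low in HL60 without the library labelled MOLM13. They came to 7 high in K562 and 1 low in THP-1 at a log2 distance of 0.5, then 0 high in K562, 0 high in THP-1 and 0 low in HL60 at a log2 distance of 2. They came to 2 low in the library labelled MOLM13 with a minimum of 150 aligned bases, then 0 low in the library labelled MOLM13 with a minimum of 3000 aligned bases. Shares of protein genes became 2.17, 0.992, 1.13 and 0.623% of nuclear protein-coding bases and 1.88, 0.930, 1.05 and 0.582% of bases outside mitochondrial rRNA. Shares of rRNA genes became 16.7, 7.84, 12.1 and 11.1% of nuclear protein-coding bases and 14.5, 7.35, 11.3 and 10.3% of bases outside mitochondrial rRNA. Of deposited TPM, rRNA genes held 8.34, 5.10, 9.20 and 7.47%, so K562 was not highest on that measure. Shares of tRNA genes became 0.229, 0.0591, 0.141 and 0.115% of nuclear protein-coding bases and 0.199, 0.0554, 0.131 and 0.108% of bases outside mitochondrial rRNA. For complex I, the median relative to the median of the 13 genes was 0.826, 0.358, 0.511 and 0.323, and the mean without MT-ND6 and the overlapping pairs was 0.773, 0.708, 0.746 and 0.769. Its share of aligned bases on the 13 genes was 44.9, 36.7, 41.4 and 41.3%. For complex III, the median relative to the median of the 13 genes was 2.61, 1.77, 1.78 and 1.77, and the mean without MT-ND6 and the overlapping pairs was 1.69, 1.48, 1.57 and 1.73. Its share of aligned bases on the 13 genes was 20.1, 18.2, 18.7 and 20.8%. For complex IV, the median relative to the median of the 13 genes was 1.11, 1.49, 1.17 and 1.02, and the mean without MT-ND6 and the overlapping pairs was 1.07, 1.23, 1.15 and 1.06. Its share of aligned bases on the 13 genes was 31.2, 40.3, 35.3 and 33.1%. For complex V, the median relative to the median of the 13 genes was 0.763, 0.778, 0.731 and 0.699. Its share of aligned bases on the 13 genes was 3.88, 4.84, 4.62 and 4.71%. Complex V has no gene left without the overlapping pairs.

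The ratio of MT-ND4L to MT-ND4 was 0.344, 0.364, 0.386 and 0.332 in aligned bases and 1.73, 1.83, 1.94 and 1.67 per length less the footprint. The ratio of MT-ATP8 to MT-ATP6 was 0.539, 0.727, 0.755 and 0.900 in aligned bases and 1.97, 2.65, 2.75 and 3.28 per length less the footprint. The ratio of MT-RNR2 to MT-RNR1 was 4.25, 13.3, 2.37 and 9.16 in aligned bases and 2.57, 8.02, 1.43 and 5.54 per length less the footprint. The ratio of MT-ND6 to MT-ND5 was 0.141, 0.0577, 0.0729 and 0.0533 in aligned bases and 0.507, 0.207, 0.262 and 0.191 per length less the footprint. Medians of complex I nuclear subunits were -0.84, 0.59, 0.056 and 0.041 with deposited TPM, and -0.25, 0.31, -0.0067 and -0.21 with TPM over nuclear protein-coding genes. They were also -0.25, 0.37, -0.14 and 0.10 with aligned bases, and -0.58, 0.49 and 0.0084 without the library labelled MOLM13. Medians of complex II subunits were -1.45, 1.32, -1.02 and 0.13 with deposited TPM, and -0.91, 1.06, -1.18 and -0.12 with TPM over nuclear protein-coding genes. They were also -0.67, 1.12, -1.20 and -0.086 with aligned bases, and -1.16, 1.27, -1.37 and 0.10 with a pseudocount of 0.1. Other values were -0.89, 1.10, -0.75 and 0.089 with a pseudocount of 5, and -1.77, 0.89 and 0.042 without the library labelled MOLM13. Further ones were -0.52, 0.99, -0.23 and 0.43 with members above 0 in every line. Medians of complex III nuclear subunits were -0.65, 0.10, 0.29 and 0.47 with deposited TPM, and -0.061, -0.18, 0.23 and 0.23 with TPM over nuclear protein-coding genes. They were also -0.17, 0.11, 0.13 and 0.32 with aligned bases, and -0.25, 0.042 and 0.28 without the library labelled MOLM13. Medians of complex IV nuclear subunits were -1.01, 0.56, -0.26 and 0.84 with deposited TPM, and -0.42, 0.28, -0.33 and 0.60 with TPM over nuclear protein-coding genes. They were also -0.39, 0.17, -0.31 and 0.55 with aligned bases, and -0.94, 0.25 and 0.53 without the library labelled MOLM13. Other values were -0.61, 0.35, -0.46 and 0.55 with members above 0 in every line. Medians of complex V nuclear subunits were -0.43, 0.56, 0.0035 and 0.10 with deposited TPM, and 0.16, 0.28, -0.060 and -0.14 with TPM over nuclear protein-coding genes. They were also -0.13, 0.34, -0.25 and 0.033 with aligned bases, and -0.41, 0.31 and 0.090 without the library labelled MOLM13. Medians of mitochondrial transcription and RNA factors were -0.088, 0.091, 0.24 and -0.22 with deposited TPM, and 0.49, -0.18, 0.20 and -0.47 with TPM over nuclear protein-coding genes. They were also 0.48, 0.056, 0.22 and -0.49 with aligned bases, and 0.21, -0.014, 0.0029 and -0.25 with a pseudocount of 5. Other values were 0.19, 0.065 and -0.40 without the library labelled MOLM13, and 0.30, -0.010, 0.013 and -0.28 with members above 0 in every line. Medians of mitochondrial translation factors were -0.13, 0.62, 0.038 and -0.27 with deposited TPM, and 0.42, 0.35, 0.0097 and -0.52 with TPM over nuclear protein-coding genes. They were also 0.39, 0.13, 0.17 and -0.50 with aligned bases, and 0.019, 0.39 and -0.42 without the library labelled MOLM13. Other values were 0.22, 0.42, -0.20 and -0.31 with members above 0 in every line. Medians of the mitochondrial aminoacyl-tRNA synthetase list were -0.35, 0.28, 0.23 and -0.060 with deposited TPM, and 0.22, 0.015, 0.23 and -0.30 with TPM over nuclear protein-coding genes. They were also 0.35, 0.14, 0.16 and -0.44 with aligned bases, and -0.026, 0.095, -0.010 and -0.068 with a pseudocount of 5. Other values were -0.071, 0.17 and 0.034 without the library labelled MOLM13, and 0.045, 0.075, 0.024 and -0.12 with members above 0 in every line. Medians of mitochondrial ribosomal proteins were -0.37, 0.48, 0.086 and -0.18 with deposited TPM, and 0.20, 0.21, 0.023 and -0.42 with TPM over nuclear protein-coding genes. They were also 0.17, 0.30, -0.066 and -0.30 with aligned bases, and -0.065, 0.32 and -0.21 without the library labelled MOLM13. The cause of these changes was not tested. No paired analysis was possible because each line has 1 library. Depth limits the tRNAs near the minimum of 600 aligned bases most, and a gene listed at 0 was not detectable at this depth or was not estimated.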
